A study of Mus musculus with 4 samples.

Results

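Complement genes were examined in mature B cells of the mouse: 10 genes encoding the classical pathway subunits C1qa, C1qb and C1qc, the components C4b and C3, the alternative pathway proteins Cfb and Cfp, the receptors C3ar1 and Cr2, and the membrane regulator Cd55. They were picked out of the 20599 gene symbols of the deposited tables by name, from earlier results of the same libraries, so their expected counts, CPM, TPM and fold changes between the cell types are given as a description, and whether a member passed the threshold of the fit across all genes is counted but supports nothing. All 10 had an entry and all 10 passed the filter on low counts. A further 45 complement genes with an entry were compared with them.

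Bulk RNA sequencing was performed on 4 libraries from C57BL/6 mice, 2 of B1a cells from the peritoneal cavity and 2 of follicular B2 cells from the spleen. All 4 libraries were wild-type and untreated, and the labels give an age of 4 weeks for each, whereas the study's methods give 8 weeks for the mice that provided B2 cells. The methods describe the controls in one place as littermates of mice with Dnmt3a deleted by a Cre transgene expressed in the B lineage and in another as C57BL/6J mice. Gates of the sort included CD23- IgM+ CD5+ for B1a and IgD-high IgM-low CD21+ for B2, so tissue of origin, sort and possibly age cannot be told apart from cell type.

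Complement is a cascade of plasma and membrane proteins. The classical pathway begins when C1q, a hexamer of A, B and C chain trimers, binds antibody or other ligands, after which C4 and C2 are cleaved to make a convertase that splits C3. The alternative pathway amplifies C3 cleavage through factor B and is stabilised by properdin (Cfp), while CD55 speeds the decay of convertases on the cell's own surface. C3 fragments fixed to antigen are read on B cells by CD21, which works with a co-receptor complex that includes CD81 to lower the threshold of the antigen receptor. B1a cells are known for natural IgM, a strong activator of the classical pathway, and follicular B2 cells for T cell-dependent antibody responses.

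C4b was the member found in 1 cell type only. Reads from part of its transcript cannot be told from those of its neighbour C4a, which RefSeq lists as a transcribed pseudogene. Both lie on chromosome 17 of GRCm38 on the minus strand, C4b from 34728139 to 34743902 and C4a from 34809092 to 34823460. The GENCODE transcripts of the pair aligned over 5357 bases, of which 96.15% were identical and 206 differed, and the longest identical run was 433 bases. Of the 5305 stretches of 75 bases in the C4b transcript, which has 41 exons, 1248 (23.5%) occurred in C4a as well. The coding window that differs most between them and a coding window in which they are the same are shown because they set which reads can be assigned. Capitals mark the 14 of 90 bases that differ. The first window is at chr17:34735430-34735519 in C4b, in exon 21, and the second is at chr17:34743523-34743612, in exon 2.
C4b, differing window: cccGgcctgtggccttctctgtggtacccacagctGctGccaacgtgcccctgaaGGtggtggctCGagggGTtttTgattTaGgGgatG
C4a, differing window: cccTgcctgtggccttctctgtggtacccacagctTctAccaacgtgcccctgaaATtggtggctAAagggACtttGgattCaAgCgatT
C4b and C4a, identical window: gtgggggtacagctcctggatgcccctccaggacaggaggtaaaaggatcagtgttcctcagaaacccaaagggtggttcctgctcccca
A read from the second window carries nothing that separates the genes, whereas reads across the first do. Of the 1637 windows of 90 bases within single coding exons, 314 were identical.

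The deposited totals were 11578785 and 11558489 expected counts in the B1a libraries and 11032732 and 18588623 in the B2 libraries. Levels are given as CPM, counts relative to a common library total after TMM scaling. A count of 3, taken as the limit below which a gene cannot be told from absent, corresponded to between 0.157 and 0.270 CPM. The B1a replicates stood further apart than the B2 replicates: 3526 of the 12078 tested genes (29.2%) differed by more than 2-fold between the B1a replicates, against 770 (6.38%) between the B2 replicates. The labels do not say that the replicates are separate mice, although the methods name 2 mice per group, so the spread between replicates may be partly technical. The 4 B cell markers (Ms4a1, Cd79a, Cd79b and Pax5) summed to 4410 and 4140 CPM in B1a and to 3210 and 3320 CPM in B2. Ms4a1 and Cd79a were called as higher in B1a, whereas Pax5 (268 and 265 CPM in B1a against 501 and 492 CPM) was called as higher in B2. The 5 markers of B1a cells (Cd5, Spn, Bhlhe41, Zbtb32 and Ctla4) summed to 1200 and 900 CPM in B1a against 69.9 and 75.1 CPM in B2. Cd5 was a gate of the sort. Spn encodes CD43, a gate in the study's general sorting section but not in its RNA sequencing section. The follicular B markers counted here, Fcer2a and Cxcr5, did not go one way. Fcer2a, which encodes CD23, a gate of the B1a sort, was called as higher in B2, and Cxcr5 was called as higher in B1a (940 and 1095 CPM against 393 and 410 CPM). Their sums were 1000 and 1160 CPM in B1a libraries, against 1330 and 1310 CPM in B2.

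For 6 members (C4b, C1qa, C1qb, C1qc, Cfp and C3ar1) the lower B1a library was above the higher B2 library, for 2 (Cr2 and Cd55) the order was the opposite, and the libraries overlapped for C3 and Cfb. Among all tested genes, 54.3% did not overlap between the cell types, 25.3% with B1a above and 29.1% with B2 above. The edgeR quasi-likelihood test across all genes, at a Benjamini-Hochberg adjusted p under 0.05, called 5.74% of tested genes, 4.24% as higher in B1a and 1.5% as higher in B2. It called 4 of the 10 members, C4b and Cfp as higher in B1a and Cr2 and Cd55 as higher in B2. Since the members were chosen on these libraries, nothing is read from these counts. The median log2 fold change (B1a minus B2) was 1.81 over the members and -0.03 over all tested genes, and the former was the same with C4b set at its lower bound.

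**Figure D1:**
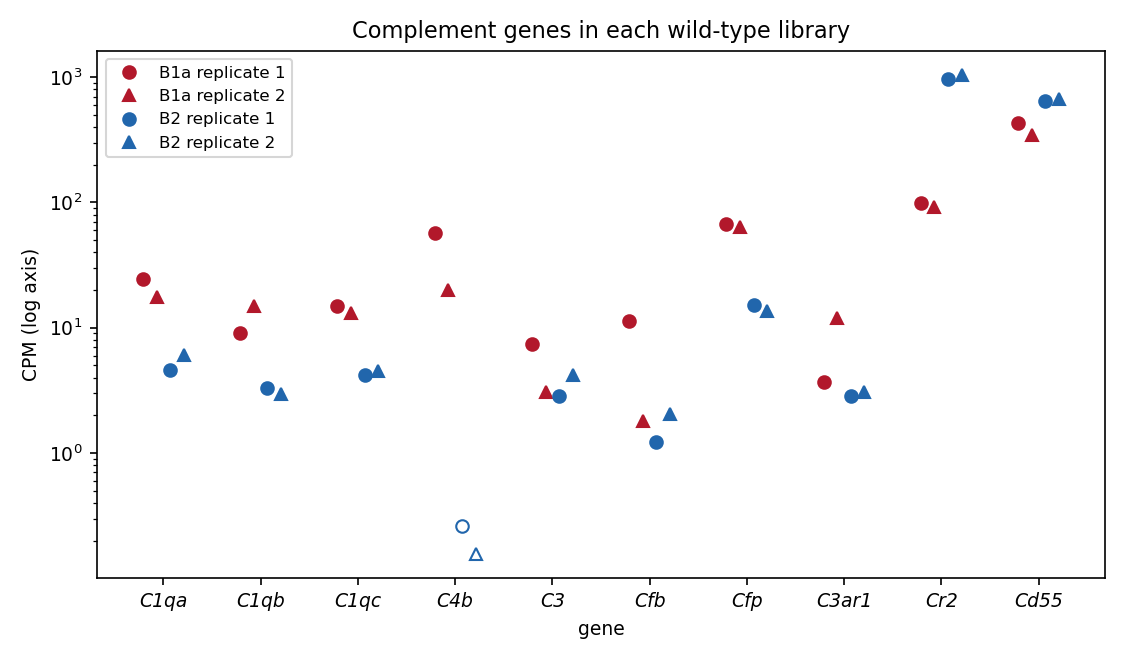
Level of each member in every library, in CPM on a log axis, with 1 point per library for B1a (red) and B2 (blue) cells. C4b had no counts in B2, where open points mark the limit of 3 counts per library, Cr2 lay near 1007 CPM in B2 against 95.2 CPM in B1a, and the libraries of the cell types overlapped for C3 and Cfb.

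C4b encodes the complement component that covalently tags surfaces and forms part of the classical C3 convertase. The expected counts summed over its entries were 637 and 221 in the B1a libraries and 0 in both B2 libraries. This corresponded to 57.1 and 19.9 CPM in B1a, a mean of 38.5 ± 26.3 CPM (SD, n = 2), and the first B1a library was 2.87 times the second. Against the mean limit of 3 counts per B2 library, C4b was at least 184.5-fold higher in B1a, and at least 95.3-fold higher when only the lower B1a library was used.

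The 4 entries of C4b carry the same RefSeq transcript, so reads cannot be placed at one entry rather than another. In B1a replicate 1 the counts were 318 for each of the first and second entries and 0 for the others. In B1a replicate 2 each of the 4 entries held 55.2 counts. The posterior SD that the authors' software gave for these estimates was 169 and 160 counts for the first and second entries in replicate 1, and from 37.9 to 43.6 counts across the entries in replicate 2. The split between entries was thus less certain than the sum, and it differed between the replicates.

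C4a was also found, in another pattern. Its summed expected counts were 54.5 and 1.1 in B1a and 44.0 and 0 in B2. Of the counts given to C4a and C4b together, C4a held 7.88% and 0.495% in the B1a libraries and 100% in the first B2 library, and the second B2 library had none. With both genes added the counts were 691, 222, 44 and 0, or 61.9 and 19.97 CPM in B1a and 3.82 and 0 CPM in B2. The B1a mean was then 21.5 times the B2 mean, the lower B1a library was 5.23 times the higher B2 library, and the sum was not called. Both B1a libraries were above both B2 libraries for C4b as deposited and for the sum, whereas for C4a as deposited the second B1a library was below the first B2 library.

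**Figure D2:**
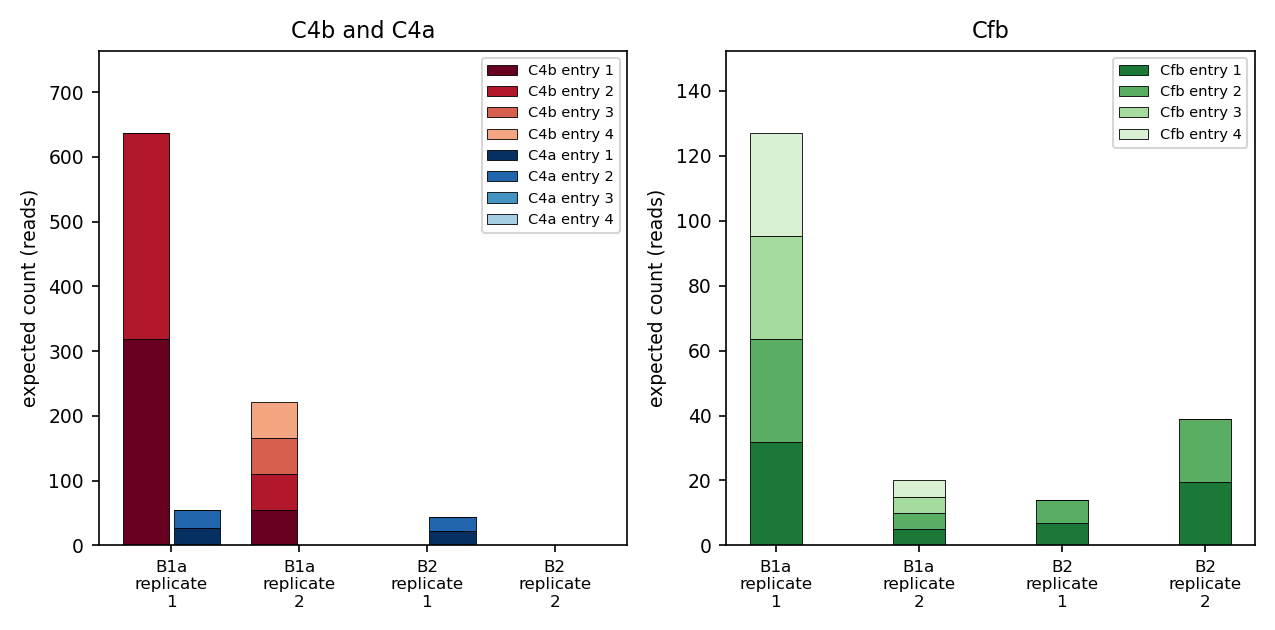
Expected counts of each deposited entry as stacked bars per library, with C4b in red and C4a in blue on the left and Cfb in green on the right. C4b stood on entries 1 and 2 in B1a replicate 1 and evenly on 4 entries in B1a replicate 2, and C4a supplied all 44.0 C4 counts of B2 replicate 1.

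The C1q chains are encoded side by side on chromosome 4 of GRCm38, C1qb from 136880126 to 136886200, C1qc from 136889801 to 136892936 and C1qa from 136895916 to 136898844. All 3 were higher in both B1a libraries. C1qa, the A chain, was found at 24.4 and 17.5 CPM in B1a and 4.60 and 6.06 CPM in B2, a log2 fold change of 1.97 (SE 0.56). C1qb, the B chain, was at 9.14 and 14.8 CPM in B1a against 3.30 and 2.98 CPM in B2, a log2 fold change of 1.93 (SE 0.81). C1qc, the C chain, was at 14.9 and 13.2 CPM in B1a and 4.16 and 4.55 CPM in B2, a log2 fold change of 1.69 (SE 0.68). The fold changes of the chains lay within 1 SE of each other. None of the chains passed the threshold.

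The assembled protein holds equal numbers of A, B and C chains, and the share of each chain in the summed C1q TPM (a transcript level that accounts for length) was therefore set side by side. C1qa held 49.7% and 37.8% in B1a and 37.6% and 44.0% in B2. C1qb held 19% and 32.8% in B1a and 27.5% and 22.1% in B2. C1qc held 31.2% and 29.4% in B1a and 35.0% and 33.9% in B2. C1qa was the largest of the shares in all 4 libraries, and for C1qa and C1qb the ranges of the cell types overlapped. The libraries held between 38 and 272 reads for each chain, so these shares are coarse.

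C1q is known as a product of macrophages, and macrophage markers were therefore counted. The 11 macrophage markers with an entry, of 12 listed, summed to 452 and 383 CPM in B1a and to 92.1 and 94.3 CPM in B2. Of 8 tested, 2 were called as higher in B1a, Lyz2 (127 and 136 CPM in B1a against 16.8 and 27.2 CPM in B2) and Mpeg1 (281 and 170 against 33.1 and 37.1 CPM), and 4 markers were higher in both B1a libraries, these together with Cd68 (16.3 and 22.1 against 8.59 and 3.35 CPM) and Cd14 (1.70 and 2.79 against 0.434 and 0 CPM). Among all tested genes 4.24% were called as higher in B1a and 25.3% had both B1a libraries higher. Timd4, a marker of resident macrophages, was at 0 and 6 counts in B1a, Gata6, a factor of large peritoneal macrophages, at 0 and 1, and Fcgr1 at 0 in both. Csf1r, the CSF1 receptor, was at 16.9 and 21.9 CPM in B1a and 21.2 and 18.4 CPM in B2. Mrc1 and Mertk were higher in B1a replicate 2 (21.0 and 7.78 CPM) than in replicate 1 (2.06 and 1.96 CPM), whereas Marco was lower (0.989 against 4.84 CPM). The part of other cells in the levels of the C1q chains, Cfp, C3ar1 and C4b was not tested, and in bulk samples fewer cells of a type cannot be told from less RNA per cell.

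Markers of other cell types were counted in the same way. Mast cell markers summed to 46.1 and 16.5 CPM in B1a and 1.47 and 0.941 CPM in B2. Of these 6 markers, 5 were higher in both B1a libraries and 1, Cma1, was called (21.9 and 4.68 CPM against 0 in both B2 libraries). Among all tested genes 25.3% had both B1a libraries higher, 29.1% had both B2 libraries higher and 4.24% were called as higher in B1a. Mcpt4 rested on 11 and 4 counts in B1a and Tpsb2 on 55 and 34. Stromal markers, counted because fibroblasts are a known source of C3, reached 7.44 CPM in B1a replicate 1, all from Col1a1, and lay at or below 0.540 CPM in the other libraries. Mesothelial markers were at 0 in both B1a libraries, neutrophil markers reached at most 0.972 CPM there, dendritic cell markers lay between 18.6 and 43.3 CPM in all libraries, T cell markers between 70.6 and 126 CPM and marginal zone B markers between 287 and 444 CPM. The marginal zone B markers did not go one way. Fcrl5 was called as higher in B1a (144.6 and 121.7 CPM against 33.5 and 27.2 CPM). Plxnd1 was also higher in both B1a libraries, whereas S1pr3, Cd1d1 and Myof were higher in both B2 libraries. Erythroid markers were at 78.8 and 504 CPM in B1a and 36.1 and 80.8 CPM in B2. Of them, Hba-a2 was called as higher in B1a (35.55 and 96.59 CPM against 5.055 and 7.456 CPM).

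The alternative pathway member with the clearest separation was Cfp, which encodes properdin and lies on chromosome X from 20925454 to 20931555. The counts were 754 and 708 in B1a and 175 and 261 in B2, or 67.6 and 63.7 CPM against 15.2 and 13.6 CPM. The group means were 65.6 ± 2.78 and 14.4 ± 1.09 CPM (SD, n = 2 each), and the log2 fold change of 2.19 (SE 0.27) was far larger than the spread of either pair of replicates. No 75-base stretch of the Cfp transcript occurred in another gene, and the posterior SD of its counts was at most 0.35.

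Cfb, which encodes factor B, was not separable between the cell types. The libraries held 127 and 20 counts in B1a and 14 and 39 in B2, or 11.4 and 1.80 CPM against 1.21 and 2.04 CPM. B1a replicate 1 stood 6.33-fold above replicate 2, which itself lay within the range of the B2 libraries, and the log2 fold change was 2.01 with an SE of 1.33. Cfb also has 4 entries. The counts were 31.8 at each entry in B1a replicate 1 and 5 at each in replicate 2, whereas only the first and second entries held counts in B2, 7 each in replicate 1 and 19.5 each in replicate 2. The GENCODE gene Gm20547 shares 81.6% of the 75-base stretches of the Cfb transcript and has no entry of its own in the tables, so its reads from those stretches would be counted at Cfb. Where reads from the rest of Gm20547 would be counted was not examined.

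C3, the component on which all pathways converge, was low in both cell types. The counts were 82 and 34 in B1a and 33 and 81 in B2, or 7.35 and 3.06 CPM against 2.86 and 4.23 CPM, and the log2 fold change of 0.55 was smaller than its SE of 1.08. The libraries of the cell types overlapped and the lower B1a library was below the higher B2 library. C3ar1, the receptor of the C3a fragment, was at 3.68 and 11.9 CPM in B1a and at 2.86 and 3.08 CPM in B2, a log2 fold change of 1.38 with an SE of 1.04. The difference between the B1a replicates, 3.23-fold with the second higher, was larger than the distance from the lower B1a library to B2.

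**Figure D3:**
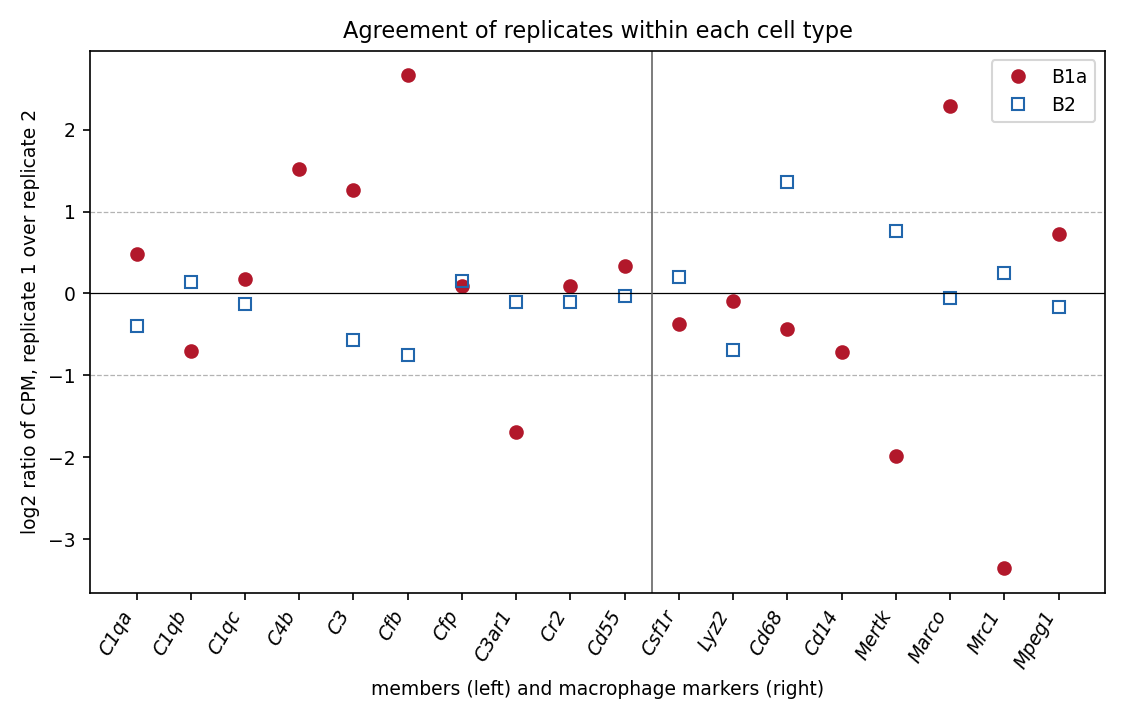
Log2 ratio of CPM in replicate 1 over replicate 2 of each cell type, for the members (left) and the macrophage markers (right), with dashed lines at a 2-fold difference; genes with at most 3 counts in a library of the pair are left out. Between the B1a replicates C4b, C3 and Cfb were 2.87, 2.40 and 6.33 times higher in the first and C3ar1 3.23 times higher in the second, whereas no member differed by more than 2-fold between the B2 replicates.

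The members did not vary together between the B1a replicates. C4b, C3 and Cfb were higher in the first, C3ar1 and C1qb in the second, and Cfp, C1qc and Cr2 differed by 1.06-fold, 1.13-fold and 1.07-fold. In that pair 4 members (C4b, C3, Cfb and C3ar1) exceeded a 2-fold difference, against 0 between the B2 replicates.

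Cr2, on chromosome 1 from 195136811 to 195176880, encodes CD21 and, by alternative splicing, CD35, which the gene counts do not separate. The counts were 1098 and 1023 in B1a and 11165 and 19998 in B2, or 98.4 and 92.03 CPM against 968.5 and 1045 CPM. The mean was 95.2 ± 4.52 CPM in B1a and 1007 ± 54.4 CPM in B2 (SD, n = 2 each), 10.6-fold higher in B2, with a log2 fold change of -3.40 (SE 0.12). B2 cells were sorted as CD21+, so this difference is in a gene that helped choose the cells. Cr2 was also found in B1a cells, where 98.4 and 92.03 CPM stood far above the limit of 3 counts per library (0.269 and 0.270 CPM).

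The partners of CD21 examined here, Cd81 and Ifitm3, had higher means in B1a. Cd81, the tetraspanin, was at 166 ± 21.4 CPM in B1a cells, against 117.5 ± 2.16 CPM in B2 (log2 fold change 0.50, SE 0.16, edgeR adjusted p = 0.161). Ifitm3, which binds the complex, was at 11.2 ± 0.0883 and 4.18 ± 1.27 CPM (1.41, SE 0.78, edgeR adjusted p = 0.384). Neither passed the threshold. Both B1a libraries were above both B2 libraries for each, as for 25.3% of all tested genes.

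Cd55, on chromosome 1 from 130429798 to 130465009, encodes decay-accelerating factor. It was at 433 and 343 CPM in B1a and at 650 and 663 CPM in B2, means of 388 ± 63.7 and 656.5 ± 8.70 CPM (SD, n = 2 each). The log2 fold change was -0.76 (SE 0.14), or 1.69-fold higher in B2. The second entry of Cd55 held 2.29 and 0 counts in B1a and 29 and 21.3 in B2, so nearly all of the 3817 to 12677 counts lay at the first. Of the 75-base stretches of its transcript, 9.39% occurred in Cd55b, a neighbouring paralog without an entry in the tables.

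Between genes only levels per length can be compared. By TPM, Cd55 was the most abundant member in both cell types, at 361 ± 65.6 TPM in B1a and 721 ± 1.53 TPM in B2. In B1a it was followed by Cfp (103 ± 6.19), C1qa (47.4 ± 11.9), Cr2 (35.4 ± 2.31), C1qc (32.7 ± 3.31), C1qb (27.6 ± 8.80), C4b (16.6 ± 11.6), Cfb (5.68 ± 5.88), C3ar1 (4.17 ± 3.06) and C3 (2.36 ± 1.41). Only the first 3 steps of that order, down to Cr2, separated both replicates of neighbouring genes. In B2 the order was Cd55, Cr2 (442 ± 18.97), Cfp (26.8 ± 2.31), C1qa (14.2 ± 2.61), C1qc (12.0 ± 0.615), C1qb (8.56 ± 0.7), C3ar1 (1.90 ± 0.0778), C3 (1.89 ± 0.495), Cfb (1.64 ± 0.566) and C4b at 0. There the replicates of C1qa and C1qc, of C3ar1 and C3, and of C3 and Cfb were not separate. Cr2 thus moved from the second place in B2 to the fourth in B1a.

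Other complement genes were counted from the same fit. Of the 46 listed, 45 had an entry and 18 passed the filter, with 19 at 0 in all 4 libraries and 22 at no more than 3 counts in any library. The genes at 0 included Hc, which encodes C5, the lectin pathway genes Masp1, Mbl1 and Mbl2, C7 and C9 of the membrane attack complex, and Serping1, the C1 inhibitor. Other genes of the lectin pathway and the membrane attack complex held counts. C6 had 0 and 28.73 counts in B1a and 51.47 and 55 in B2, and C8g had 6 and 20 against 38 and 84. C8a had 0 and 11.95 counts in B1a against 16.02 and 20.15 in B2. Fcna had 10 and 140 against 46 and 31. Masp2 had 0 in both B1a libraries and 3.93 and 25.88 in B2. Among the 18 tested, 1 was called as higher in B1a, and 0 were called as higher in B2 by edgeR, while 5 had an unadjusted p under 0.05. The count of 1 in 18 is near the 5.74% called among all tested genes. The median log2 fold change was -0.82, against -0.03 over all tested genes. For 3 genes both B1a libraries were higher and for 7 both B2 libraries were, beside 25.3% and 29.1% of all tested genes.

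The called gene was Itgam, which encodes the alpha chain of complement receptor CR3, which binds C3 fragments and is a known surface marker of peritoneal B1 cells. It was at 148 and 127 CPM in B1a and 6.46 and 1.90 CPM in B2 (log2 fold change 5.10, SE 0.59, edgeR adjusted p = 0.00842). Itgam is also expressed by macrophages, whose markers are given with the C1q chains.

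Of the other genes with at least 10 CPM in a cell type (Itgb2, Cd93, C1qbp and Cr1l), none passed the threshold in edgeR. Itgb2 and Cd93 passed it in 8 of 15 alternatives each, among them DESeq2 and limma-voom. Those 8 include the fits without a B1a library, where the lone library is assumed to vary like the B2 pair and many more genes are called. Itgb2, the beta chain shared by CR3 and CR4, was at 179.5 ± 3.84 CPM in B1a cells, against 112 ± 5.93 CPM in B2 (log2 fold change 0.68, SE 0.15, edgeR adjusted p = 0.0579). Cd93, a C1q-binding receptor that marks immature B cells, was at 15.3 ± 7.19 and 53.9 ± 1.39 CPM (-1.82, SE 0.41, edgeR adjusted p = 0.0654). The study's general sorting section selects B2 cells negative for CD93, a gate that its RNA sequencing section does not list. C1qbp, named for binding the globular head of C1q but mostly mitochondrial, was at 33.6 ± 2.68 and 34.7 ± 2.21 CPM (-0.05, SE 0.28, edgeR adjusted p = 0.954). The log2 fold change of Cd93 was -2.41 without B1a replicate 1 and -1.41 without B1a replicate 2. Cr1l, the rodent regulator also called Crry, which like CD55 limits C3 deposition on cells, was at 79.3 ± 4.12 and 78.5 ± 3.02 CPM (0.01, SE 0.19, edgeR adjusted p = 0.980).

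Among the regulators, Cd55 was called as higher in B2, and the Cr1l libraries of the cell types overlapped. Some tested genes rested on few reads. C2, which forms the classical convertase with C4, had 40 and 82 counts in B1a and 11 and 0 in B2. C1ra, which encodes a C1r protease, had 0 and 2 counts in B1a and 32.5 and 108 in B2, a ratio of pooled counts of 50.95 in favour of B2 (exact 95% interval 13.8 to 425, counting error only), and did not pass the threshold. Colec10, a lectin pathway collectin, was at 0 in both B1a libraries and at 2.07 and 2.44 CPM in B2, at least 8.39-fold higher in B2, and did not pass it either.

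**Figure D4:**
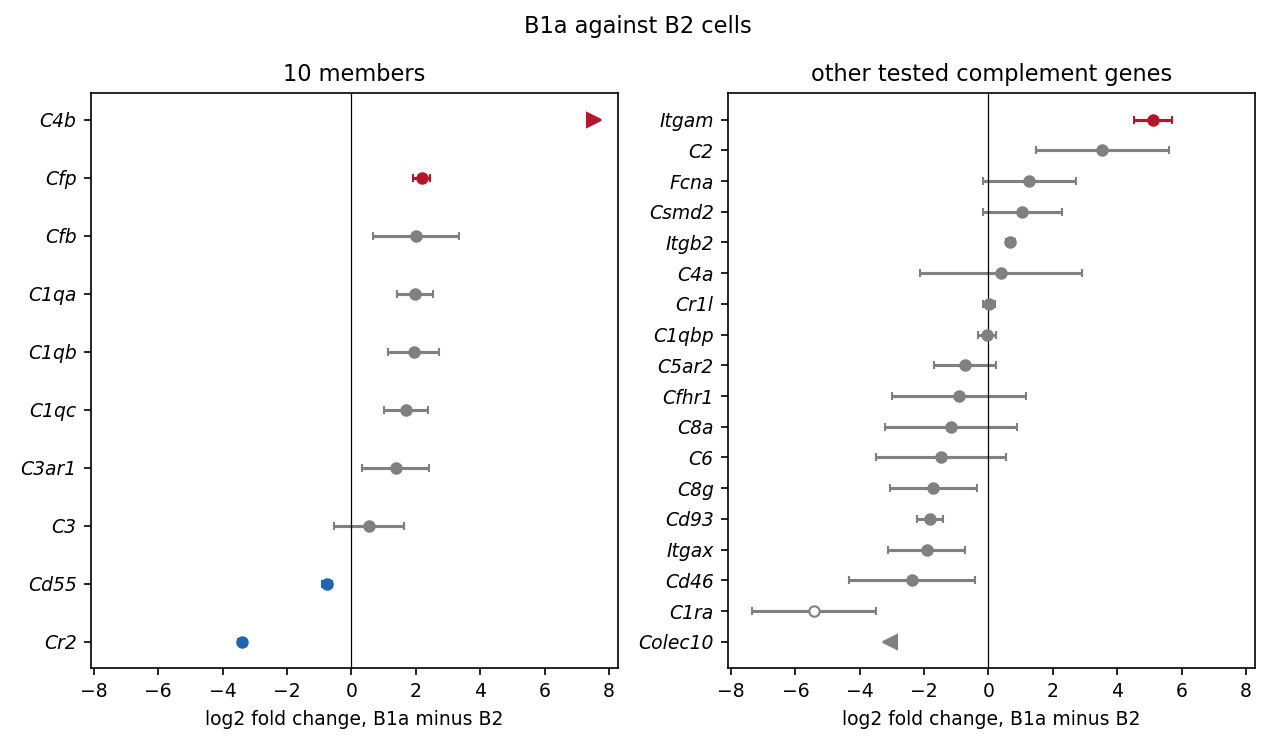
Log2 fold change (B1a minus B2) of the 10 members on the left and of 18 other tested complement genes on the right, with bars for 1 SE; red and blue mark genes called as higher in B1a and in B2, triangles mark the lower bounds of C4b and Colec10, and an open circle marks C1ra, with at most 3 counts in each B1a library. Of the members 8 lay above 0, and of the other complement genes 7 lay above and 11 below.

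The genes most like C4b in level over the 4 libraries, by distance of log2(CPM + 0.5), were Ryk, Tnfsf8 and Wipf3, at distances of 1.14, 1.24 and 1.30 among 12077 genes compared. Ryk, a Wnt receptor, was at 29.2 and 21.8 CPM in B1a and 0.260 and 0 CPM in B2. Those most like Cr2 were Lrrk2, Fcer2a and Zfp318, at distances of 0.624, 0.889 and 1.13. Fcer2a encodes CD23, whose absence was a gate of the B1a sort, and was at 63.7 and 60.9 CPM in B1a and 934 and 896 CPM in B2.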

How the data were processed

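RNA was sequenced from 2 libraries of B1a and 2 of B2 cells, sorted from 35000 to 100000 cells per B1a library and 100000 per B2 library. The labels name a ribosomal RNA depletion kit, whereas the study's text names another kit and an enrichment of polyadenylated RNA. The authors aligned reads to mm10 and estimated expression with RSEM, whose version is 1.2.29 in the submitters' processing notes and 1.25.0 in the methods; whether counting used strand is not given in the sources used here. The deposited tables hold expected counts per gene entry, TPM, and, as a signal in counts, the posterior SD of each count from the authors' RSEM run. The median over entries of length less effective length was 73.4 to 73.5 bases, so shared stretches were counted at 75 bases.

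Expected counts were summed over the entries of each symbol (21970 entries, 20599 symbols) and rounded. Low genes were removed by filterByExpr before TMM scaling, and the quasi-likelihood test of edgeR 4.0.16 (R 4.3.3) was run with cell type as the only term and Benjamini-Hochberg adjustment. CPM used TMM-scaled totals, and SE came from the F statistic. The study's own test (EBSeq) was not used here. Alternatives were DESeq2 1.42.0, limma 3.58.1, other scalings and filters, entries not summed, a replicate block and leaving out each library. Scripts were tested on simulated data. p-values measure only the spread between these libraries. Exact intervals (scipy 1.17.1) and limits of 3 counts cover counting error only. Sequences came from GENCODE M21 on GRCm38, and gene positions from RefSeq GRCm38.p6.

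The members and gene lists were chosen with earlier results of these data known. Named were all members and their entries, other complement genes that passed the test or reached a mean of 10 CPM in either cell type, CD21 partners, and the 3 genes nearest C4b and Cr2. C2, C1ra, Colec10, C6, C8a, C8g, Fcna, Masp2 and the genes at 0 fall outside that rule and were named after their values were seen. Of the listed genes, 1 complement gene, 1 CD21 partner and 1 marker are not reported here. The methods name no pairing of same-numbered libraries. Their deviations correlated at -0.0172, which with so few libraries cannot decide whether they share a mouse or a batch.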

Additional observations from a re-analysis of the deposited data

How the results depend on the processing

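Cfp, Cr2 and Cd55 kept their direction and passed the threshold in 15 of 15 alternatives, and Itgam in 15 of 15. C4b was tested in only 14 alternatives, because the strictest count filter removed it. It kept its direction in 14 of 14 and passed in 9. With 0 counts in both B2 libraries that direction could not reverse, except where C4a was added, so nothing is read from it. C4b missed with limma-voom, with both TPM fits, with entries not summed and with C4a added to it (chosen after seeing the data). Members were chosen on these libraries, so how often they passed describes the processing only and supports nothing. C1qa passed in 4 of 15, among them the fits without a B1a library, and C3 in 0. C1qb, C1qc, C3ar1 and Cfb passed only in fits without a B1a library. The number of genes called, 693 in the main fit (512 higher in B1a and 181 in B2), was 1562 with DESeq2, 1141 without a filter beyond 1 count, 359 with log2(TPM + 0.1) and 1415 with limma-voom weighted by cell type (chosen after seeing the data). The split was 266 and 233 with log2(TPM + 1) and 196 and 163 with log2(TPM + 0.1), where the median log2 fold change of all genes was -0.30 and -0.32. Of the other complement genes, 1 of 18 tested in the main fit, the count was 4 with DESeq2 and 3 with limma-voom, with at least 10 counts in every library, without a filter and with the weighted limma-voom. In the same order, the calls over all genes rose to 1562, 877, 944, 1141 and 1415, so nothing about complement is read from the higher counts.

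With the replicate number as a block, 1481 genes and 3 other complement genes were called, and the calls of members stayed at 4. Same-numbered libraries are not known to share more than the number, and the cause was not tested. Leaving out 1 library gave 539 to 6143 called genes, 1 to 9 other complement genes and 4 to 8 members. The counts were highest without a B1a library (3953 without replicate 1 and 6143 without replicate 2), where the lone library is assumed to vary like the B2 pair. The log2 fold change of C3 ranged from -0.22 (without B1a replicate 1) to 1.04 with 1 library left out, that of C1qbp from -0.13 to 0.030, above 0 without B1a replicate 1 and without B2 replicate 2 (0.01), and that of Cr1l from -0.042 to 0.063, below 0 without B1a replicate 2 and without B2 replicate 1 (-0.03). Cr1l was also below 0 with upper quartile factors (-0.055), log2(TPM + 1) (-0.23) and log2(TPM + 0.1) (-0.23). The cause was not tested. With the largest entry in place of the sum, Cfb was at 1.42 TPM in B1a (5.68 summed) and 0.82 in B2 (1.64 summed), C4b at 7.24 in B1a (16.6 summed) and Cd55 in B2 at 718.8 (721 summed). C3, C3ar1, Cfb and the C1q chains rested on at most 272 counts per library, with an SE of the log2 fold change from 0.56 to 1.33. Differences well above 1 SE also missed the threshold in the main fit, as for C1qa (log2 fold change 1.97, SE 0.56). A gene that was not called was therefore not shown to be unchanged.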
